A study of Mus musculus with 8 samples.

Results

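The genes described here are 36 genes of mitosis and the G2 phase before it, chosen by name: the mitotic cyclins and their kinase, the mitotic kinases, the spindle checkpoint, the kinetochore, the spindle motors and the proteins that divide the cell. All 36 were found among the 24481 named genes of the deposited table, and all 36 passed the filter on low values, a mean of at least 10 on the linear scale over 8 samples. The mice were wild-type females on the C57BL/6J background, which is an inbred strain, and whole stomachs were sequenced. One group of 4 samples had its adrenal glands removed and the other group of 4 samples had sham surgery, and both were taken at day 3. Adrenalectomy takes away adrenal glucocorticoids together with aldosterone and adrenaline, so the comparison is of the stomach with and without all adrenal hormones. The labels give no age and do not say that each sample was a separate animal, so the error between samples may be partly technical.

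A dividing cell copies its DNA, then builds up cyclin B with the kinase CDK1 to enter mitosis, attaches its chromosomes to a spindle through the kinetochores, waits at a checkpoint until all are attached, and finally destroys cyclin B through the anaphase-promoting complex. Most genes of this programme are transcribed from late S phase to mitosis, and their RNA is low in cells that have left the cycle. In the stomach the dividing cells are mainly progenitors in the isthmus of the corpus glands and in the lower antral glands, and basal cells of the squamous forestomach, with some dividing leukocytes and stromal cells. In RNA from whole tissue, fewer dividing cells and less of these RNAs per dividing cell cannot be told apart.

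Genes of late cell cycle are held off in resting cells by the DREAM complex and switched on by MuvB with B-MYB and FOXM1, and both forms bind a promoter element called the cell cycle genes homology region, or CHR, often next to boxes bound by the factor NF-Y. Promoter windows of RefSeq on build GRCm38.p6, from 250 bases before to 50 bases after the annotated start, were matched by symbol for 31 of the 36 genes, not for Ccna2, Foxm1, Aurkb, Kif20a and Tpx2. The 31 genes had 32 windows, since Prc1 has 2 overlapping ones. The windows were searched on both strands for TTTGAA, the common form of the CHR, and for CCAAT, the core of the NF-Y box. TTTGAA stood in 24 of the 32 windows (75.0%) and in 17.9% of all 32851 windows of the same length. It lay within 50 bases of the start in 22 of 32 windows (68.8%) against 4.94% of all windows. CCAAT stood in 25 of the 32 windows (78.1%) and in 37.4% of all, and both motifs stood together in 65.6% and 6.95%. No base belonged to both motifs in any of the 32 windows. A match is a run of letters and was not measured here as a bound site.

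The 7 windows printed here show how the motifs are laid out in genes that the results return to: cyclins B1 and B2, CDK1, the Ki-67 antigen, topoisomerase II alpha, a ubiquitin-conjugating enzyme and, as the member with the lowest difference, anillin. Each runs 5′ to 3′ on the strand of the gene, and capitals mark TTTGAA and CCAAT or their reverse complements. On GRCm38.p6 the windows are chr10:69352863-69353162 (minus) for Cdk1, chr13:100786437-100786736 (minus) for Ccnb1, chr9:70421505-70421804 (minus) for Ccnb2, chr7:135716330-135716629 (minus) for Mki67, chr11:99024140-99024439 (minus) for Top2a, chr2:164769679-164769978 (plus) for Ube2c, chr9:22389157-22389456 (minus) for Anln, with the strand in brackets.
Cdk1: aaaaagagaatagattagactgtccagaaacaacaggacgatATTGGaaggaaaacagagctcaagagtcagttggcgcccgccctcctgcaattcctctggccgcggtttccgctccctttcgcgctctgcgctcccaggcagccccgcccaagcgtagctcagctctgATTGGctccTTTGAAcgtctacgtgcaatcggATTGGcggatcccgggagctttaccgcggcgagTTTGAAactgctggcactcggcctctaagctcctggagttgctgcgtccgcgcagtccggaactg
Ccnb1: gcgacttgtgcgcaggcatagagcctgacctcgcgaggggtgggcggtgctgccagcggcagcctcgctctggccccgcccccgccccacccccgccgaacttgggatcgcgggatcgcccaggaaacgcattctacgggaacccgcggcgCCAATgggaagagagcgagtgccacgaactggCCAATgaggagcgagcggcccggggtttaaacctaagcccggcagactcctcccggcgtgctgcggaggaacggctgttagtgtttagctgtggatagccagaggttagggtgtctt
Ccnb2: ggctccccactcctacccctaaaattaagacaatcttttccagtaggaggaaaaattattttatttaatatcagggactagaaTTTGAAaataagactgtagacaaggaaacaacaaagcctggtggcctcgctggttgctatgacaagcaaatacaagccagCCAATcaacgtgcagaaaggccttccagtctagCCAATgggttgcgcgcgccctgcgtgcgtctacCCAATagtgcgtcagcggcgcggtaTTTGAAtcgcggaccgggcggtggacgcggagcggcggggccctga
Mki67: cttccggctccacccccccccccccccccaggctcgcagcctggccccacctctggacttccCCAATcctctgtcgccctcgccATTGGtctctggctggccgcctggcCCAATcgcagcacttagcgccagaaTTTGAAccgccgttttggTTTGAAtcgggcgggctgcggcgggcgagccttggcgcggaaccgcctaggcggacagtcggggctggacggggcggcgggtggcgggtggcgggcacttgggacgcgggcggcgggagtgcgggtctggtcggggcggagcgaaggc
Top2a: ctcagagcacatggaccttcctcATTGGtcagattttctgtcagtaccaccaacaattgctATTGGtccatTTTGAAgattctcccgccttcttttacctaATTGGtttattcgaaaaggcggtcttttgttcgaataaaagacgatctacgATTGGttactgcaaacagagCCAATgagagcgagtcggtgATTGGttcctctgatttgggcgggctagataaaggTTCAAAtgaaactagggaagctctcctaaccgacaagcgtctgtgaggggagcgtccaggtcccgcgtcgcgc
Ube2c: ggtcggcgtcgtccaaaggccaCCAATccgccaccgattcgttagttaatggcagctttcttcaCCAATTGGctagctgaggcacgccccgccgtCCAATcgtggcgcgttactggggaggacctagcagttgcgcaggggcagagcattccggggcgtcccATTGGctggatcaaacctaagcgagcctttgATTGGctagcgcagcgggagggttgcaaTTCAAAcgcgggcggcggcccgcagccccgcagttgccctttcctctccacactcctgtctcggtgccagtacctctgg
Anln: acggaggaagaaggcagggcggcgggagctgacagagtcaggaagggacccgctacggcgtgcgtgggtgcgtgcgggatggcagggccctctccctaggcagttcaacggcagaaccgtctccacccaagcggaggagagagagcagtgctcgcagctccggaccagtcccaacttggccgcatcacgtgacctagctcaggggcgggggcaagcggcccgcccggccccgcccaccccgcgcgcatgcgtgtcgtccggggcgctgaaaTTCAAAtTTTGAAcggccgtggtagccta

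In the Cdk1 window the CHR motif stands at -71 and -15, counted in bases from the start, and the NF-Y box at -208, -80 and -48. Ccnb2 has the CHR motif at -167 and at 5, with NF-Y boxes at -87, -54 and -21. Ccnb1 has NF-Y boxes at -99 and -67, and TTTGAA is not among the letters of its window. Other forms of the CHR were not searched for. Top2a and Ube2c hold 6 NF-Y boxes each, 2 of which overlap in Ube2c, and Anln holds the CHR motif at 22 and 29 and no NF-Y box. The CHR motif stood in 63.4% of 41 windows of a list of further G2/M genes and in 11.1% of 36 windows of G1/S and DNA replication genes.

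**Figure D1:**
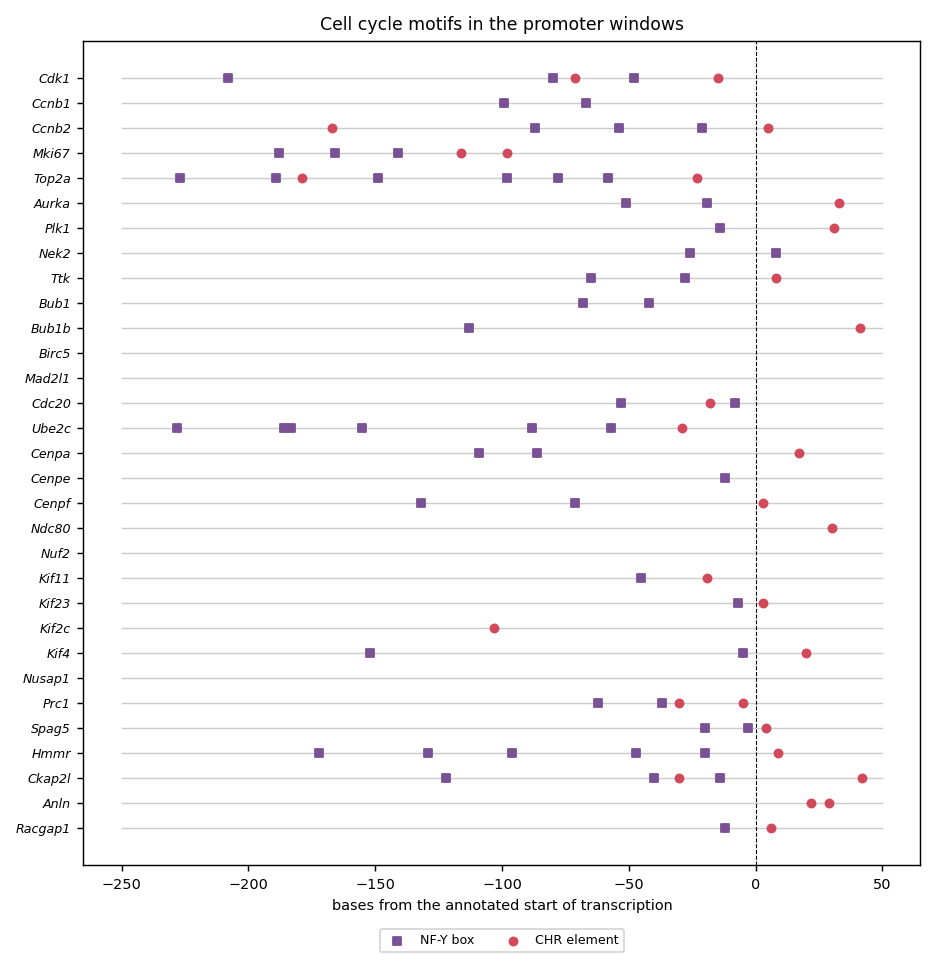
Positions of the CHR element (circles) and the NF-Y box (squares) in the promoter windows of 31 genes, in bases from the annotated start, with the windows of Prc1 drawn on 1 line. The CHR element falls within 50 bases of the start in 22 of 32 windows, and the lines of Birc5, Mad2l1, Nuf2 and Nusap1 hold neither motif.

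Values are log2 expression as the authors deposited it, normalized between samples, and no counts are given, so the depth of each sample is unknown. The labelled tissue was checked on gastric markers: Pgc, Gif, Atp4a and Muc5ac, markers of chief, parietal and surface cells, had sham means of 23.31, 17.42, 19.62 and 19.52 on that scale. Other tissues were present in unequal amounts. The mean log2 value of 20 squamous markers ranged from 11.05 to 12.78 in sham samples and from 10.31 to 11.99 after adrenalectomy. Of those 20 markers all had a lower mean after adrenalectomy and none was called. The mean of 14 skeletal muscle markers was 9.11 and 9.10 in sham replicates 2 and 3 and 7.05 to 7.35 in the other 6 samples. For 12 liver markers adrenalectomy replicate 1 had a mean of 14.15, while the range elsewhere was 9.23 to 11.61. The 4 antral markers Gast, Pdx1, Nkx6-3 and Aqp5 had means of 7.86 to 9.52 in sham samples and 8.27 to 8.92 after adrenalectomy, and the hormone gene Gast ran from 6.53 in sham replicate 4 to its highest value in sham replicate 1.

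Most mitotic genes had a slightly higher mean after adrenalectomy, and no single gene passed the test. Of the 36 genes 34 had a higher mean after adrenalectomy, where 49.5% of all 16889 tested genes did, and the exceptions were Nusap1 and Anln. The median log2 difference, adrenalectomy minus sham, was 0.11, against -0.00088 over all tested genes, and single genes lay between -0.03 and 0.17. The largest, Mki67, is a 1.13-fold difference. At a Benjamini-Hochberg adjusted p under 0.05 in limma, 0 of 36 were called, where 1.71% of all tested genes were called 0.93% higher and 0.782% lower. At an unadjusted p under 0.05, 12 of 36 were higher and 0 lower, where 9.73% of tested genes were higher and 9.48% lower. The groups did not overlap in 6 of 36, all higher after adrenalectomy, where 6.3% of tested genes stood apart in that direction and 6.13% in the other. The share at an unadjusted p under 0.05 was above its background, but many members share their highest and lowest samples and are not separate results. Among the 289 called genes of the whole data set, 62 had an absolute log2 difference no larger than that of Mki67.

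**Figure D2:**
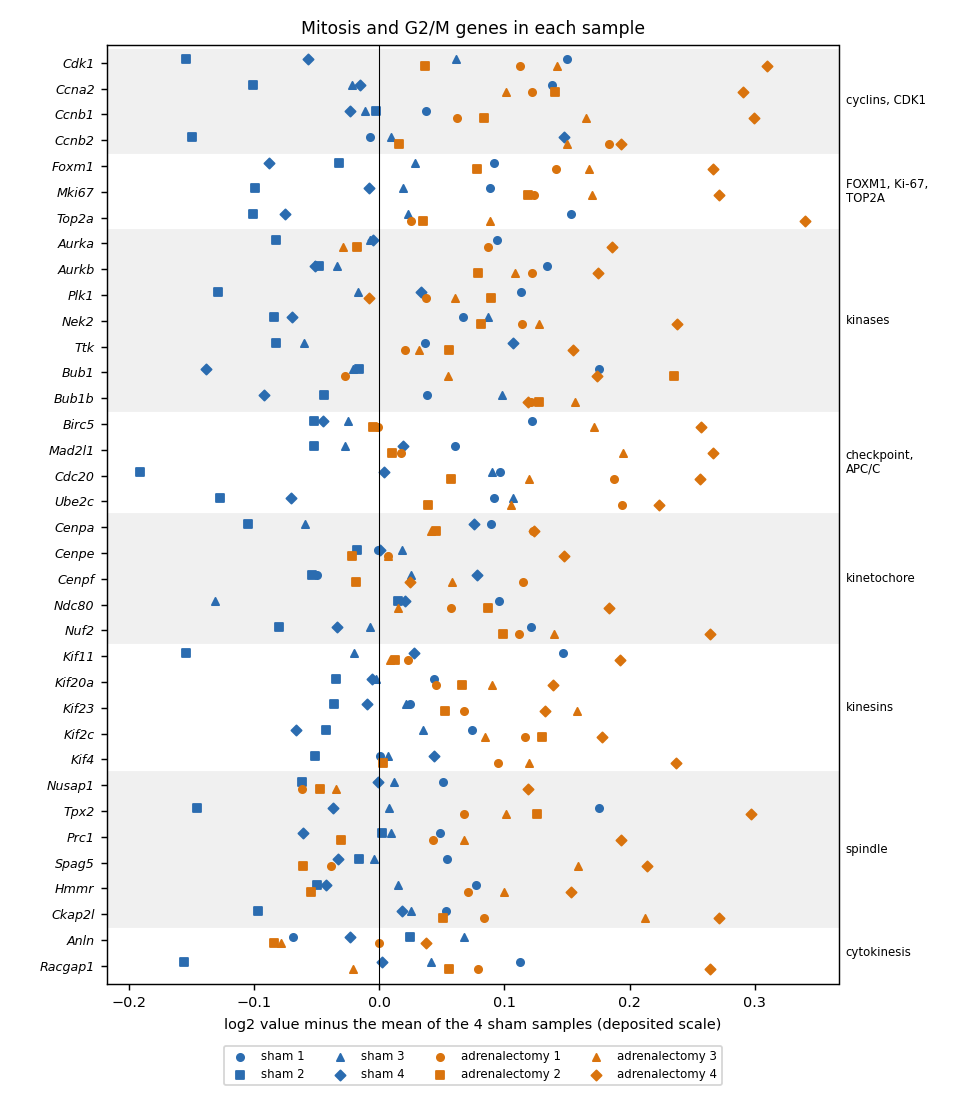
Log2 value of each of the 36 genes in each sample, minus the mean of the 4 sham samples, with sham samples in blue and adrenalectomy samples in orange and 1 marker shape per replicate number. Adrenalectomy replicate 4 is the highest of the 8 samples in 30 genes, and sham replicate 2 is the lowest in 24.

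Mki67, which encodes the Ki-67 antigen that coats mitotic chromosomes and marks cycling cells, stood at 13.35, 13.16, 13.28 and 13.25 in sham replicates 1 to 4 and at 13.38, 13.38, 13.43 and 13.53 after adrenalectomy. Every adrenalectomy sample was above every sham sample, the nearest pair being 13.38 and 13.35. The means were 13.26 ± 0.078 and 13.43 ± 0.071 (SD, n = 4 each), and the log2 difference was 0.17 ± 0.05 SE (limma adjusted p = 0.112). Top2a, the topoisomerase that untangles chromosomes before they part, stood at 12.55, 12.30, 12.42 and 12.32 in sham samples and at 12.43, 12.43, 12.49 and 12.74 after adrenalectomy. Sham replicate 1 lay above 3 of the 4 adrenalectomy samples, and the difference was 0.12 ± 0.08 SE (limma adjusted p = 0.446). Foxm1, the transcription factor that drives G2/M genes, stood at 10.02, 9.90, 9.96 and 9.84 in sham samples and at 10.07, 10.01, 10.10 and 10.20 after adrenalectomy. Only sham replicate 1 reached into the adrenalectomy range, and the difference was 0.16 ± 0.05 SE (limma adjusted p = 0.160).

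All 4 genes of the mitotic cyclins and their kinase had higher means, with a median log2 difference of 0.15, and 2 of 4 had an unadjusted p under 0.05. Cdk1, the kinase that starts mitosis, stood at 10.70, 10.39, 10.61 and 10.49 in sham samples and at 10.66, 10.58, 10.69 and 10.86 after adrenalectomy. The groups overlapped, with sham replicate 1 second of the 8 samples, and the difference was 0.15 ± 0.08 SE with a 95% interval of -0.03 to 0.33. Ccna2, cyclin A2, which acts in S phase and G2, stood at 11.19, 10.95, 11.03 and 11.04 in sham samples and at 11.17, 11.19, 11.15 and 11.34 after adrenalectomy. The difference was 0.16 ± 0.06 SE (limma adjusted p = 0.198), and sham replicate 1 alone overlapped the adrenalectomy samples. Ccnb1, cyclin B1, the main partner of CDK1 in mitosis, stood at 10.26, 10.22, 10.22 and 10.20 in sham samples and at 10.29, 10.31, 10.39 and 10.53 after adrenalectomy. Its groups did not overlap, and the SD was 0.027 in sham samples and 0.11 after adrenalectomy. The difference was 0.15 ± 0.05 SE (limma adjusted p = 0.178). Ccnb2, cyclin B2, stood at 10.17, 10.03, 10.19 and 10.32 in sham samples and at 10.36, 10.19, 10.33 and 10.37 after adrenalectomy. Here sham replicate 4, not replicate 1, was the highest sham sample, and the difference was 0.14 ± 0.07 SE (limma adjusted p = 0.314).

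The 7 mitotic kinase genes all had higher means, with log2 differences of 0.04 to 0.14 and a median of 0.11, and Aurkb, Nek2 and Bub1b had an unadjusted p under 0.05. Aurkb, the kinase of the chromosomal passenger complex that corrects wrong attachments, stood at 9.72, 9.54, 9.56 and 9.54 in sham samples and at 9.71, 9.67, 9.70 and 9.77 after adrenalectomy. Sham replicate 1 was level with the adrenalectomy samples and the other 3 sham samples lay below them all, and the difference was 0.12 ± 0.05 SE (limma adjusted p = 0.240). Bub1, a checkpoint kinase at the kinetochore, stood at 9.39, 9.19, 9.19 and 9.07 in sham samples and at 9.18, 9.45, 9.26 and 9.38 after adrenalectomy. The groups were interleaved, with a difference of 0.11 ± 0.08 SE (limma adjusted p = 0.486). Bub1b, which encodes the checkpoint protein BubR1, ranged from 10.12 to 10.31 in sham samples and from 10.33 to 10.37 after adrenalectomy without overlap, with a difference of 0.13 ± 0.04 SE (limma adjusted p = 0.167). Plk1, which acts at centrosomes, kinetochores and in cytokinesis, stood at 12.62, 12.37, 12.48 and 12.54 in sham samples and at 12.54, 12.59, 12.56 and 12.49 after adrenalectomy. Adrenalectomy replicate 4, the highest sample for most members, was the lowest of its group, and the difference was 0.04 ± 0.05 SE with a 95% interval of -0.07 to 0.16. Aurka, the centrosome kinase, differed by 0.06, Ttk, the checkpoint kinase MPS1, by 0.07, and Nek2, a centrosome kinase, by 0.14 on the log2 scale, with limma adjusted p-values of 0.630, 0.541 and 0.226.

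Genes of the checkpoint and of the machinery that ends mitosis had higher means in 4 of 4, with a median log2 difference of 0.13, and none had an unadjusted p under 0.05. Cdc20, which activates the anaphase-promoting complex, stood at 10.26, 9.97, 10.25 and 10.16 in sham samples and at 10.35, 10.22, 10.28 and 10.41 after adrenalectomy. Adrenalectomy replicate 2 lay below 2 sham samples, and the difference was 0.16 ± 0.07 SE (limma adjusted p = 0.289). Ube2c, the ubiquitin-conjugating enzyme of that complex, stood at 10.60, 10.38, 10.62 and 10.44 in sham samples and at 10.71, 10.55, 10.62 and 10.73 after adrenalectomy. Sham replicates 1 and 3 overlapped the adrenalectomy group, and the difference was 0.14 ± 0.07 SE (limma adjusted p = 0.290). Birc5, which encodes survivin of the chromosomal passenger complex, stood at 10.39, 10.21, 10.24 and 10.22 in sham samples and at 10.26, 10.26, 10.44 and 10.52 after adrenalectomy. In that gene the adrenalectomy samples fell into a lower and a higher pair, and the difference was 0.11 ± 0.07 SE (limma adjusted p = 0.441). Mad2l1, which encodes the checkpoint protein MAD2, showed the same pair of high samples at 10.12 and 10.19 and a difference of 0.12 ± 0.06 SE (limma adjusted p = 0.339).

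The 5 kinetochore and centromere genes all had higher means, with a median log2 difference of 0.08, and Nuf2 had an unadjusted p under 0.05. Cenpe, the kinetochore motor that carries chromosomes to the spindle equator, stood at 10.68, 10.66, 10.70 and 10.68 in sham samples and at 10.69, 10.66, 10.69 and 10.83 after adrenalectomy. Of the 8 values 7 lay within 10.66 to 10.70, and the difference of 0.03 ± 0.04 SE rested on adrenalectomy replicate 4 and was -0.0026 without it. Cenpf, another large kinetochore protein, differed by 0.04 and Cenpa, the centromere histone, by 0.08. Ndc80 and Nuf2 encode 2 subunits of the same microtubule-binding complex, and their log2 differences were 0.09 ± 0.06 SE and 0.15 ± 0.06 SE (limma adjusted p = 0.464 and 0.203).

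Among the mitotic kinesins, the motors of the spindle, the median log2 difference was 0.10 over 5 genes. Groups did not overlap in 3 of 5, where 6.3% of all tested genes stood apart as higher. With median centring 0 of the 36 members stood apart. Kif23, which encodes the motor of the central spindle, stood at 10.86, 10.79, 10.85 and 10.82 in sham samples and at 10.90, 10.88, 10.99 and 10.96 after adrenalectomy. The difference was small but tight, 0.10 ± 0.03 SE (limma adjusted p = 0.146). Kif20a, a motor of cytokinesis, ranged from 10.12 to 10.20 in sham samples and from 10.20 to 10.29 after adrenalectomy, and the 2 nearest samples stood at 10.1951 and 10.1972. Kif2c, which takes microtubules apart at centromeres, ranged from 8.90 to 9.04 and from 9.05 to 9.15, and the differences of Kif20a and Kif2c were 0.09 ± 0.03 SE and 0.13 ± 0.04 SE (limma adjusted p = 0.214 and 0.180). Kif11, the motor that pushes the spindle poles apart, stood at 11.07, 10.76, 10.90 and 10.95 in sham samples and at 10.94, 10.93, 10.93 and 11.11 after adrenalectomy. Sham samples spread more widely, from below to above 3 of the adrenalectomy samples, and the difference was 0.06 ± 0.07 SE (limma adjusted p = 0.664). Kif4, the chromosome-arm motor, differed by 0.11 ± 0.05 SE (limma adjusted p = 0.283).

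The 6 spindle assembly genes had a median log2 difference of 0.07, with 5 higher and 1 lower. Tpx2, which activates aurora A and seeds spindle microtubules, stood at 10.65, 10.33, 10.48 and 10.44 in sham samples and at 10.54, 10.60, 10.58 and 10.77 after adrenalectomy. Sham replicate 1 was second of the 8 samples, and the difference was 0.15 ± 0.08 SE (limma adjusted p = 0.326). Nusap1, a microtubule-bundling protein, stood at 10.39, 10.27, 10.35 and 10.34 in sham samples and at 10.27, 10.29, 10.30 and 10.46 after adrenalectomy. Of the 4 adrenalectomy samples 3 lay below the sham mean, and the difference was -0.0062 ± 0.0475 SE with a 95% interval of -0.12 to 0.10. Ckap2l, a spindle pole protein, had the highest value of this group, 0.15 ± 0.06 SE (limma adjusted p = 0.212), while Prc1, the bundler of the central spindle, Spag5 and Hmmr, both needed for spindle organization, each differed by 0.07.

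The 2 cytokinesis genes went in opposite directions. Anln, which encodes anillin, the scaffold of the contractile ring, stood at 10.85, 10.94, 10.99 and 10.89 in sham samples and at 10.92, 10.83, 10.84 and 10.95 after adrenalectomy. Sham replicate 1 was here the lowest sham sample, and the difference was -0.03 ± 0.04 SE with a 95% interval of -0.13 to 0.06. Racgap1, which pairs with KIF23 in the centralspindlin complex, differed by 0.09 ± 0.07 SE (limma adjusted p = 0.511).

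**Figure D3:**
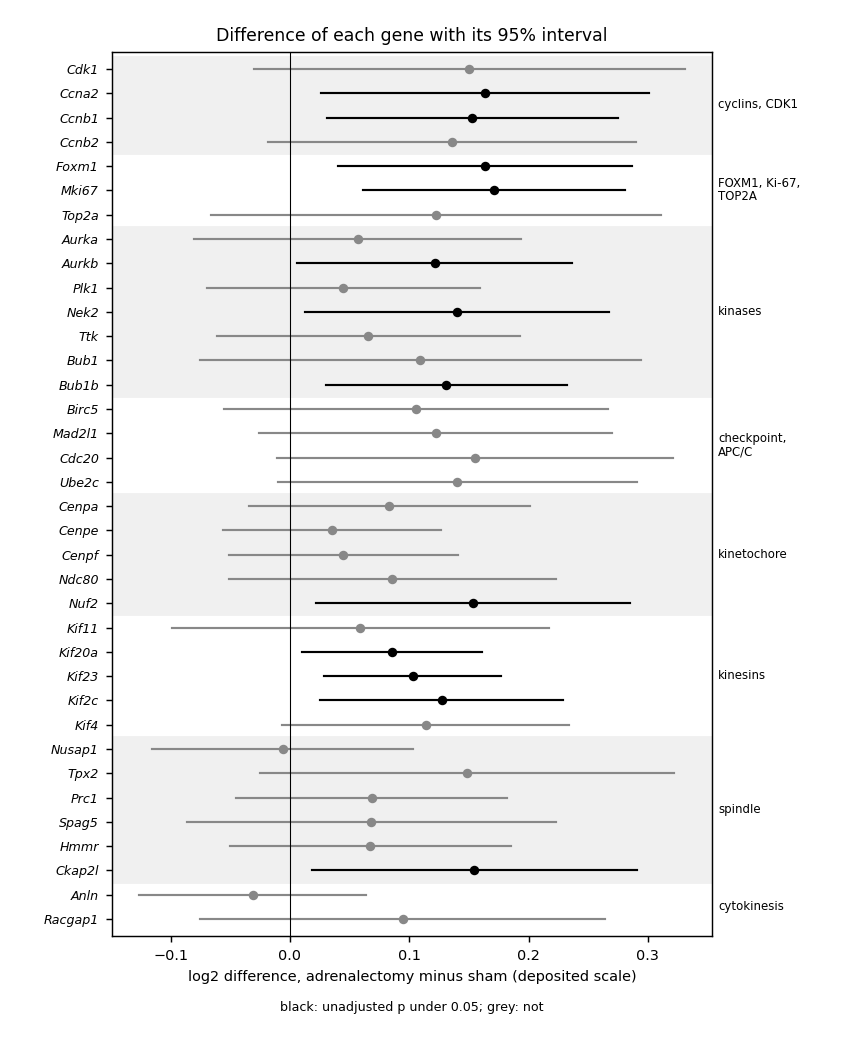
Log2 difference of each gene, adrenalectomy minus sham, with its 95% interval from limma. Points of 34 genes lie above 0 and the 12 intervals drawn in black, of genes with an unadjusted p under 0.05, lie wholly above it, and no gene had an adjusted p under 0.05.

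Levels of the members were compared per length, as the sham mean of linear values divided by exonic kilobases of the GENCODE M21 annotation. That length takes in every annotated exon of a gene, also of minor transcripts. The annotation behind the deposited values is not named, so the order is approximate. Plk1 was highest at 2643 per kb, ahead of Mki67 at 974, Ccnb2 at 758 and Cdc20 at 614. Ndc80 was lowest at 57.8 and Ttk next at 82.7. The gap between Plk1 and the rest was on the level, whereas Plk1 was among the members with the smallest difference. Together the 36 genes made up 0.0609% to 0.0692% of the summed linear values in sham samples and 0.0690% to 0.0768% after adrenalectomy.

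Many members shared their highest and lowest samples within each group, though not the whole order. The mean log2 value of the 36 genes was 10.38, 10.23, 10.31 and 10.29 in sham replicates 1 to 4 and 10.38, 10.35, 10.39 and 10.50 in adrenalectomy replicates 1 to 4. Sham replicate 1 was therefore level with adrenalectomy replicate 1 and above adrenalectomy replicate 2, while the other 3 sham samples lay below every adrenalectomy sample. Sham replicate 1 was the highest sham sample in 27 of 36 genes, where it was in 31.1% of all tested genes, and sham replicate 2 the lowest in 26 of 36, against 24.8%. Adrenalectomy replicate 4 was the highest of its group in 31 of 36 genes, against 26.1% of all tested genes. The median SD within groups was 0.079 for the members and 0.061 for 10103 tested genes in the same range of mean values.

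Markers of other tissues differed between the samples that were high and low for the members. Within groups the antral and intestine means shared part of the order of the members. Sham replicate 1, the sham sample with the highest mean of the mitotic genes, had the highest antral mean of all 8 samples at 9.52 and the lowest squamous mean of its group at 11.05. Adrenalectomy replicate 4 had the second highest antral mean at 8.92 and a squamous mean within the range of its group at 11.32. Sham replicate 3 had nearly the same antral mean, 8.91, with a mean of the mitotic genes of 10.31, and sham replicate 2, lowest for the mitotic genes, had an antral mean of 7.95 and a squamous mean of 12.74. Sham replicate 3 had the highest squamous mean, 12.78, and was above sham replicate 4 for the mitotic genes, while adrenalectomy replicate 3 had the lowest squamous mean, 10.31, and was below adrenalectomy replicate 4. The mean of 4 tested intestine markers was 9.69, 8.93, 9.22 and 8.94 in sham replicates 1 to 4, the same order as the mitotic genes. Of these markers Fabp2 alone had that order. Alpi and Vil1 were lowest in sham replicate 4, and Lct stood at 6.80, 6.62, 6.69 and 6.77. Cdx1, Cdx2, Sis and Defa24 of the list of 8 were below the filter. In adrenalectomy replicates 1 to 4 the intestine mean was 9.22, 9.06, 9.16 and 9.21, with replicate 2 lowest for both but replicate 1 highest. The antral mean was also highest in sham replicates 1 and 3, but lowest in sham replicate 4. After adrenalectomy it was highest in replicate 4 and lowest in replicate 2, as for the mitotic genes. The antral markers differed in this: Nkx6-3 had the same extremes and Pdx1 was also lowest in replicate 2. Gast was lowest in replicate 3, and Aqp5 was highest in replicate 3 and lowest in replicate 1. With the antral mean as a covariate the median log2 difference of the mitotic genes was 0.11 and 16 of 36 had an unadjusted p under 0.05. With the squamous mean it was 0.08 with 2 of 36, with the skeletal muscle mean 0.07 with 1 of 36, and with antral and squamous means together 0.09 with 8 of 36. Of all tested genes 10.3%, 6.75%, 5.93% and 7.13% were higher at such a p in these fits, in that order. The 8 tested leukocyte markers also had higher means after adrenalectomy, at 7.09 to 7.21 against 6.88 to 6.98 without overlap. Of them Ptprc, the pan-leukocyte antigen CD45, rose by 0.41 ± 0.06 SE and the macrophage genes Adgre1 and Csf1r by 0.36 ± 0.04 SE and 0.52 ± 0.07 SE (limma adjusted p = 0.0314, 0.0161 and 0.0223). The calls were kept in 10 of 24 alternative settings for Ptprc, 15 for Adgre1 and 13 for Csf1r. Leaving out sham replicate 2, sham replicate 3 or adrenalectomy replicate 4 ended all 3 calls, leaving out adrenalectomy replicate 1 or 2 also ended that of Csf1r, and for Ptprc the call was kept only without sham replicate 1. Ms4a1, Cd3e, Cd3g and Cd8a, which mark B and T cells, were below the filter. With the leukocyte mean as a covariate, which itself separates the groups, the median of the mitotic genes was 0.06 and 23 of 36 were higher. In that fit 0 of 36 had an unadjusted p under 0.05, where 4.22% of all tested genes were higher at such a p. The parts of antral, squamous and leukocyte RNA in the difference of the mitotic genes were not tested beyond these fits.

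**Figure D4:**
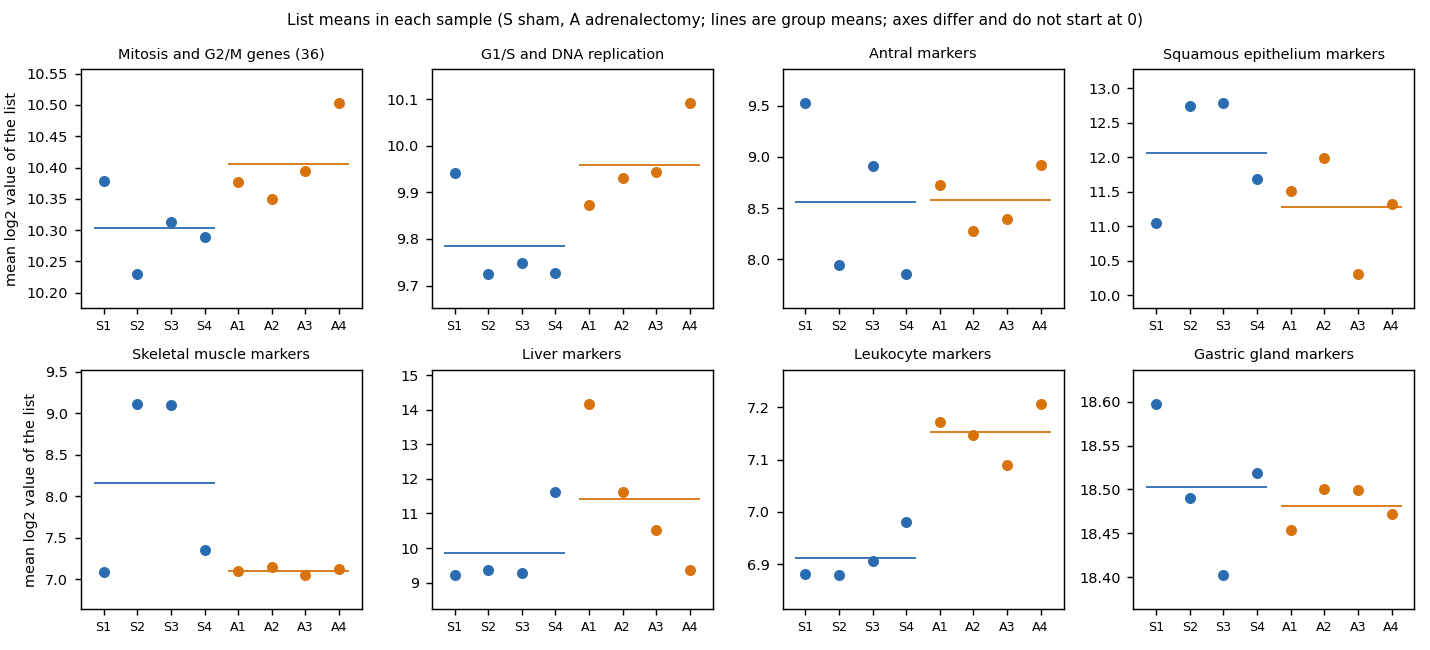
Mean log2 value of 8 gene lists in each sample, sham in blue and adrenalectomy in orange, with lines at group means and a separate vertical axis for each list. The mitotic genes stand at 10.23 to 10.38 in sham samples and at 10.35 to 10.50 after adrenalectomy, and sham replicate 1 is high both there and among antral markers.

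The difference of the mitotic genes depended on single samples in its counts and less in its direction. The median ranged from 0.07, without adrenalectomy replicate 4, to 0.14, without sham replicate 1. The number at an unadjusted p under 0.05 was 5 without sham replicate 2, 7 without sham replicate 4, 5 without adrenalectomy replicate 4 and 18 without adrenalectomy replicate 2. Of all tested genes 8.31%, 8.38%, 7.6% and 8.81% were higher at such a p in those fits. The number whose groups did not overlap was 14 without sham replicate 1, where 11.9% of all tested genes stood apart as higher, and 12 without adrenalectomy replicate 2, where 8.65% did. With 3 samples against 4, groups stand apart more easily than with 4 against 4. Scaling mattered to the narrow gaps as well: with each sample centred on its median gene, 0 of 36 stood apart and 5 had an unadjusted p under 0.05, and with quantile normalization 2 and 5 did. With centring 3.8% of all tested genes stood apart as higher and 6.25% were higher at such a p. With quantile normalization 4.83% and 7.86% did, so the background fell as well. The median difference of the members was 0.10 in both, 34 of 36 stayed higher, and no member was called in any of 24 alternative settings. The lowest limma adjusted p of any member there was 0.0554, for Aurkb, and the lowest of Mki67 was 0.0601.

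**Figure D5:**
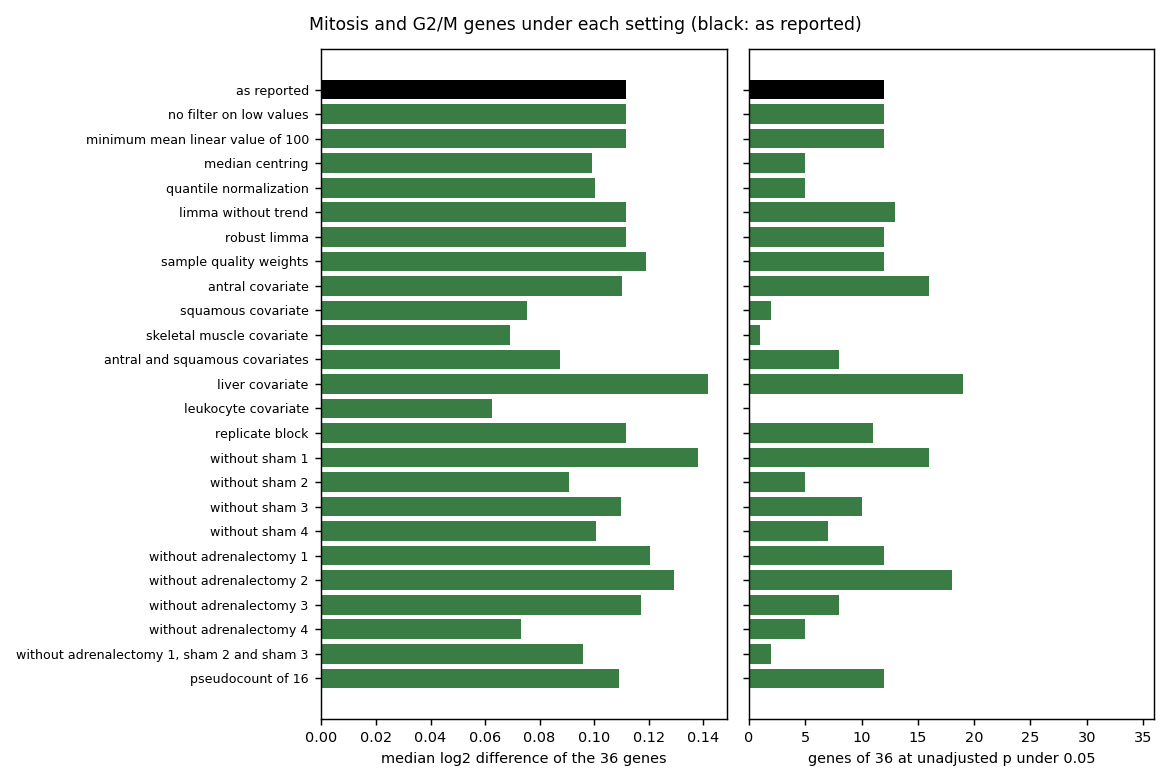
Median log2 difference of the 36 genes (left) and number of the 36 with an unadjusted p under 0.05 (right) as reported, in black, and under 24 alternative settings, in green. The median stays between 0.06 and 0.14, while the number runs from 0 with the leukocyte covariate to 19 with the liver covariate. Of all tested genes 4.22% and 9.12% were higher at such a p in those fits.

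Further genes of the cell cycle were read from lists beside the members. Of 48 tested further G2/M genes 41 had a higher mean, with a median log2 difference of 0.08, 11 had an unadjusted p under 0.05 and none was called. Those 11 were all higher, where 9.73% of all tested genes were higher at such a p. Dlgap5, a spindle protein that aurora A phosphorylates, ranged from 8.77 to 8.93 in sham samples and from 8.97 to 9.10 after adrenalectomy, a difference of 0.19 ± 0.05 SE (limma adjusted p = 0.0980). Cdca3, a trigger of mitotic entry, and Ckap2, a spindle protein, differed by 0.16 ± 0.05 SE and 0.10 ± 0.03 SE, and Ect2, the activator of RhoA in cytokinesis, by 0.14 ± 0.05 SE (limma adjusted p = 0.125, 0.166 and 0.185).

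Of 40 tested G1/S and DNA replication genes 38 had a higher mean, with a median log2 difference of 0.16, above the 0.11 of the mitotic genes, a gap that was not tested. None was called, and 19 higher and 2 lower genes had an unadjusted p under 0.05, where 9.73% of all tested genes were higher and 9.48% lower. Fen1, the flap nuclease of Okazaki fragments, ranged from 9.78 to 9.97 in sham samples and from 10.01 to 10.26 after adrenalectomy, a difference of 0.27 ± 0.06 SE (limma adjusted p = 0.0749). Mcm2 and Mcm4, subunits of the replicative helicase, and Cdt1, which loads it, differed by 0.34, 0.31 and 0.29 (limma adjusted p = 0.0834, 0.104 and 0.108). Without sham replicate 1, whose mean over this list was 9.94 against 9.73 to 9.75 in the other sham samples, 9 of these genes were called and 0 of the 36 mitotic genes. In that fit 633 of all 16889 tested genes were called, 3.75%, against the 289 above. In 21 of 24 alternative settings, among them every other fit without 1 sample, 0 genes of this list were called. The number was 6 with sample quality weights and 2 with the liver covariate, where 3.69% and 0.746% of all tested genes were called.

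Of 25 genes of cell cycle brakes and of the DREAM and MuvB complexes, 13 had a higher and 12 a lower mean, with a median of 0.0037. Btg2, an antiproliferative gene induced by p53, rose from a range of 13.53 to 13.63 to one of 13.80 to 13.86, by 0.24 ± 0.03 SE (limma adjusted p = 0.0126). That call was kept in 19 of 24 alternative settings and in every fit without 1 sample. It was lost with the skeletal muscle covariate (limma adjusted p = 0.105), with antral and squamous covariates together (0.0797) and with the leukocyte covariate (0.455). The replicate block (limma adjusted p = 0.129) and leaving out adrenalectomy replicate 1 and sham replicates 2 and 3 together (0.311) also ended it. Ccng2, a cyclin of cell cycle exit, Ccng1, a p53 target, and Rbl2, which encodes the pocket protein p130 of DREAM, had groups that did not overlap, all lower after adrenalectomy, with differences of -0.35, -0.10 and -0.16 (limma adjusted p = 0.0840, 0.0887 and 0.109). Of all tested genes 6.13% stood apart as lower. Of 8 G1 cyclins, G1 kinases and Myc genes, 6 had a higher mean and Mycn rose by 0.25 ± 0.05 SE (limma adjusted p = 0.0398), a call that was kept in 9 of 24 alternative settings. Ccnd2, Ccnd3 and Ccnd1, the D cyclins, differed by 0.19, 0.10 and 0.27 (limma adjusted p = 0.0699, 0.133 and 0.159).

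Of 15 gastric progenitor markers 4 had a higher and 11 a lower mean, with a median log2 difference of -0.04, and none was called. Lgr5, a marker of antral stem cells and of some chief cells, differed by -0.13 ± 0.05 SE, Prom1 by -0.11 and the Wnt target Axin2 by -0.11, while Stmn1, a microtubule regulator of dividing isthmus cells, differed by 0.08 (limma adjusted p = 0.237, 0.213, 0.251 and 0.231).

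Among the 31 genes with a promoter window, the median log2 difference was 0.09 in 23 with TTTGAA and 0.12 in 8 without it. It was 0.11 both in 24 genes with CCAAT and in 7 without it. Differences with TTTGAA ranged from -0.03 to 0.17 and those without it from -0.0062 to 0.15, so the ranges overlapped almost in full.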

How the data were processed

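RNA sequencing libraries of 8 mouse stomach samples, 4 after adrenalectomy and 4 after sham surgery, were compared. The authors deposited log2 values, normalized between samples, for 24507 rows named by gene symbol. Per the submitters' processing notes they used Trim Galore, STAR, featureCounts and DESeq2 with build mm9, and no version, strand setting, annotation or transformation is named there. The spread shrank at low values (median SD 0.024 over the 8 samples for mean log2 values up to 4, 0.089 between 8 and 10), so differences of low genes may be understated, which was not tested. The 8 further columns of the table were not analysed here, 26 rows named by dates were left out, and no columns used were identical.

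Genes with a mean linear value of at least 10 entered the fit, 16889 in all. The test was limma (version 3.58.1, under R 4.3.3) with group as the only term and the variance prior following mean level; p-values are two-sided with Benjamini-Hochberg adjustment over all tested genes. The code was tested on simulated data. Lists were described by counts and medians, with no test of a list. Members and lists were chosen with earlier results of these data known. By rule, per-sample values are given for 16 members named by role and for the 3 largest and 3 smallest differences and the 3 smallest p; of other lists up to 4 genes are named, called genes first; Bub1b, Kif20a, Kif2c and a few members in clauses are named as members. Alternatives covered filters, scaling, variance models, tissue covariates, left-out samples, a pseudocount of 16 and a replicate block.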

Additional observations from a re-analysis of the deposited data

Results flagged for a closer look

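Of 114 groups of 4 samples checked for a sample far from the other 3, 6 stood out, and chance flags about 1 in 20 groups. In 3 of them the sample was sham replicate 1, the sample with the highest means of antral markers (9.52) and of intestine markers (9.69). Aurkb stood at 9.72 there against 9.54 to 9.56 in the other sham samples, Birc5 at 10.39 against 10.21 to 10.24, and the mean of the G1/S and DNA replication genes at 9.94 against 9.73 to 9.75. In 2 it was adrenalectomy replicate 4, where Kif11 stood at 11.11 against 10.93 to 10.94 in the other adrenalectomy samples and Nusap1 at 10.46 against 10.27 to 10.30. The mean of the liver markers was 11.61 in sham replicate 4 against 9.23 to 9.37 in the other sham samples.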

How the results depend on the processing

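None of the 36 mitotic genes was called by limma as reported or under any of 24 alternatives. Of 864 results of single members under an alternative, 835 kept their direction and 29 reversed, in 14 members, and 22 members never reversed. The other lists of cell cycle genes held 48, 40, 25 and 8 tested genes. As reported, 289 genes of the table were called, 1.71% of all tested genes. In that fit 12 members had an unadjusted p under 0.05, 6 members had groups that did not overlap and 2 genes of those lists were called. With median centring these counts were 156, 5, 0 and 1, in that order, and 0.924% of all tested genes were called. With quantile normalization 5 members had such a p and 2 did not overlap. In these fits 6.25% and 7.86% of all tested genes were higher at such a p, and 3.8% and 4.83% stood apart as higher. Sample quality weights gave 624 called genes, 3.69% of all tested genes, and 10 in the other lists. The squamous covariate gave 41 called genes, 2 members and 1 call in the other lists, with Plk1 at -0.0012 and Anln at 0.0034. The skeletal muscle covariate gave 4, 1 and 0, with Plk1 at -0.039, Ttk at -0.010, Cenpa at -0.0083, Kif11 at -0.042 and Anln at 0.022. Antral and squamous covariates together gave 0 called genes, 8 members and 0 calls, with Anln at 0.0076. The liver covariate gave 126 called genes and 19 members, with Nusap1 at 0.031. In that fit 9.12% of all tested genes were higher at an unadjusted p under 0.05. The share was 6.75% with the squamous, 5.93% with the skeletal muscle and 4.22% with the leukocyte covariate, and 7.13% with antral and squamous covariates together. The leukocyte covariate gave 0, 0 and 0, with Ccnb2 at -0.20, Aurka at -0.17, Ttk at -0.20, Cdc20 at -0.050, Cenpa at -0.13, Cenpe at -0.11, Cenpf at -0.10, Ndc80 at -0.052, Kif11 at -0.16, Kif4 at -0.081, Racgap1 at -0.22, Ptprc at -0.045 and Csf1r at -0.023. Without adrenalectomy replicate 1 and sham replicates 2 and 3 together, 0 genes, 2 members and 0 genes of the other lists passed. Plk1 was then at -0.026, Cenpa at -0.012, Kif11 at -0.016 and Anln at 0.0045. In that fit 5.26% of all tested genes were higher at an unadjusted p under 0.05. Leaving out 1 sample at a time gave 27 to 633 called genes, 5 to 18 members with such a p and 6 to 14 that did not overlap. The other lists then held 1 to 16 calls. Of all tested genes 0.16% to 3.75% were called, and 7.39% to 12% were higher at such a p. From 7.46% to 11.9% stood apart as higher. In these fits Nusap1 ranged from -0.048 to 0.012, with a reversed direction in 4 of them, and Cenpe from -0.0026, without adrenalectomy replicate 4, to 0.054. The causes of these changes were not tested, and a fit without a sample also has fewer samples. Whether replicate numbers pair the samples is unknown. Deviations of same-numbered samples correlated at -0.29, 0.45, -0.12 and -0.63, which cannot show how the samples were handled. A fit with the replicate block gave 4 called genes, 11 members and 0 calls in the other lists, where 8.24% of all tested genes were higher at such a p. Counts and depth are unknown, so sampling error of single genes cannot be given.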
